A study of Mus musculus with 2 samples.

Results

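Cycling T cells were followed in a single-cell RNA study of mouse tumours treated with DFMO, which blocks ornithine decarboxylase and with it the first step of polyamine synthesis. The treated library came from DFMO-treated C57BL/6 mice and its control from water-treated C57BL/6 mice, all carrying tumours of MC38, a colon carcinoma line of the same strain. From day 7 after implantation the agent was given by gavage for 14 days, once daily by the study's design text and more often by its treatment notes. Tumours were dissociated, immune cells were enriched over Ficoll, and cells of 4 mice per group were pooled into 1 Chromium 5′ library. The pooling leaves no spread between animals to measure, so every interval given here is a 95% interval of counting error only and no difference was tested.

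Cycling T cells were chosen by their own unique molecular identifiers (UMIs, each standing for 1 captured transcript). Each had at least 2 UMIs of the T cell receptor subunits Cd3d, Cd3e and Cd3g and at least 4 UMIs of the division genes Mki67, Top2a, Birc5 and Cdk1. It also had no UMI of the B cell gene Cd79a or the NK cell gene Ncr1, and at most 2 UMIs of the myeloid gene Lyz2. This rule found 110 cells of 4472 in the DFMO library and 191 cells of 6248 in the water library, 301 of 10720 in all. T cells that met the same rule with none of the 4 division genes, here called non-cycling, numbered 1448 and 811. T cells with 1 to 3 division UMIs belong to neither set.

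T cells leave quiescence when their antigen receptor and costimulatory receptors are engaged, and they then copy their DNA in S phase and separate it in mitosis. E2F factors drive the genes of S phase, while the MuvB complex with B-MYB and FOXM1 drives those of G2 phase and mitosis through promoter elements that include the cell cycle genes homology region (CHR). In tumours and chronic infection, dividing CD8 T cells are known to include effector and checkpoint-expressing cells as well as a pool marked by the transcription factor TCF1, the product of Tcf7, that renews itself. Polyamines are needed for the growth of dividing cells, and activated T cells are known to raise Odc1, the gene of ornithine decarboxylase.

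The deposited cells held 23588037 UMIs in the DFMO library and 59748244 in the water library. Cycling T cells had a median of 10119.5 UMIs in DFMO and 8216 in water, against 2016.5 and 2370 in non-cycling T cells of the same libraries. The deeper coverage of dividing cells bears on the rule itself, because a deep cell reaches 4 division UMIs more readily. The 2 libraries shared 37 cell barcodes, none of them between cycling T cells of both. The barcode of 1 cycling T cell also occurred in the other library.

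**Figure D1:**
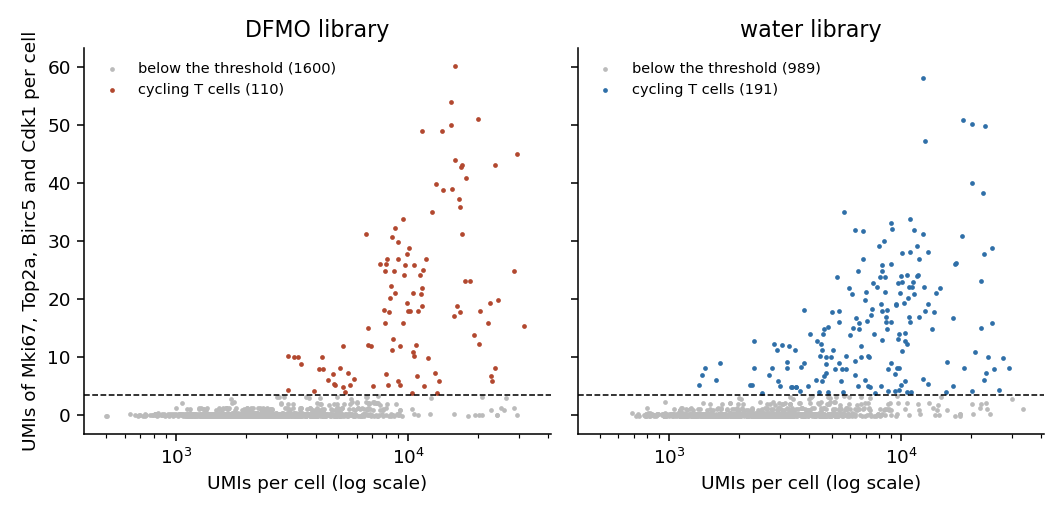
UMIs of the 4 division genes (vertical axis) against all UMIs (horizontal axis, log scale) in each T cell, with the DFMO library left and the water library right. Coloured points are cycling T cells, grey points are T cells below 4 division UMIs (dashed line), and points are spread slightly along the vertical axis. Division UMIs reached 60 in DFMO and 58 in water, with medians of 18 and 14 among cycling T cells.

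The values that chose the cells are a description only. Birc5, a mitotic survival protein, was seen in 102 of 110 DFMO and 178 of 191 water cells, Top2a, which untangles chromosomes, in 95 and 169, Cdk1, the mitotic kinase, in 94 and 150, and Mki67 in 87 and 157. At the threshold, 5 DFMO and 14 water cells had exactly 4 division UMIs, and 15 DFMO and 18 water T cells just below it had 3. Cells with 4 UMIs had 0.596% (DFMO) and 0.494% (water) of their UMIs in a list of G2 and M phase genes that excludes the 4 division genes, and cells with 3 had 0.424% and 0.569%. The 48 DFMO and 58 water cells with at least 20 division UMIs had 2.03% and 1.65%.

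Markers of other cell types showed that the label did not hold cleanly for every cell. In 11 of 110 DFMO cells (10.0%, exact 95% interval 5.10 to 17.2) and 25 of 191 water cells (13.1%, 8.65 to 18.7) there were at least 10 UMIs of a list of 10 fibroblast genes. In 9 DFMO cells (8.18%) and 13 water cells (6.81%) there were at least 10 UMIs of the class II antigen presentation genes Cd74, H2-Aa, H2-Ab1 and H2-Eb1. Together, 20 DFMO cells (18.2%, 11.5 to 26.7) and 36 water cells (18.8%, 13.6 to 25.1) had such a mixed profile, against 1.04% and 4.32% of non-cycling T cells. The 10-UMI limit was set after these values were seen.

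Mixed cells were deep, with a median of 16893.5 UMIs in DFMO and 18555.5 in water, against 9768 and 6995 in the other cycling T cells. The cells with at least 10 fibroblast-list UMIs held 98.4% (DFMO) and 99.2% (water) of that list's UMIs in cycling T cells. Dcn, a matrix proteoglycan gene of the list, was at 156 CPM (counts per 1000000 UMIs) in DFMO and 416 CPM in water, and at 959 and 1138 CPM in dividing Ptprc-negative cells, which lack the leukocyte antigen CD45. The whole list stood at 525 CPM in DFMO against 1308 CPM in water with all mixed cells, and at 11.6 and 15.9 CPM without them. All 10 genes of that list were seen in water, while Col1a1, Col1a2, Lum, Postn and Mfap4 were at 0 in DFMO. The doublet caller Scrublet marked 0 DFMO and 8 water cycling T cells, and all 8 had a mixed profile. Whether the mixed profiles were 2 cells in 1 droplet was not tested, and values without them are given beside many of the results.

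Markers of further lineages were scarce. B cell markers summed to 14 UMIs in DFMO (4 of 9 genes seen) and 15 UMIs in water (3 of 9), with Ms4a1 at 0 in both. The monocyte and macrophage list summed to 617 and 587 CPM, of which Ly6c2, a gene that activated T cells also use, gave 762 of 788 UMIs in DFMO and 992 of 1043 in water. Adgre1 and Ms4a7 were at 0 in both. The NK cell list, led by the lectin-like receptor gene Klre1, summed to 243 and 321 CPM with Klra8 at 0. Of the neutrophil markers, all but Mmp9 were at 0. Dendritic cell genes stood at 135 CPM in DFMO against 124 CPM in water, and at 4.24 and 15.0 CPM without mixed cells. Plasma cell, tumour epithelium, endothelial and erythroid lists were each below 20 CPM, and the gamma-delta T cell list, with Sox13, Il17a and Trdv4 at 0, reached 21.9 and 30.4 CPM.

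The share of T cells that were cycling was lower in DFMO. It was 6.43% (110 of 1710, 5.32 to 7.70) in DFMO and 16.2% (191 of 1180, 14.1 to 18.4) in water, a difference of -9.75 percentage points (-12.2 to -7.34). With each cell thinned to 2000 UMIs and the whole rule applied to what remained, the shares were 5.95% of 958 DFMO and 11.4% of 808 water T cells, a difference of -5.44 points. Thinning left out 738 DFMO and 363 water T cells that were too shallow, of which 0 and 5 were cycling T cells.

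T cells with transcripts of naive cells were unequally frequent in the libraries. A UMI of Lef1, Ccr7 or Dapl1, genes of naive and recirculating T cells, was found in 70.6% (68.4 to 72.8) of DFMO T cells and 21.9% (19.5 to 24.3) of water T cells. Among T cells with no such UMI, 12.4% (62 of 502, 9.60 to 15.6) were cycling in DFMO and 16.4% (151 of 922, 14.0 to 18.9) in water. That difference was -4.03 points, with an interval of -7.78 to -0.0659 that ends close to 0. The choice of these genes was made after the data were seen, and the difference depended on it, at -4.63 points with Lef1 and Ccr7, -5.93 with Lef1 and Dapl1 and -6.14 with Ccr7 and Dapl1. A lack of such UMIs also depends on depth, cycling T cells were deeper than non-cycling ones, and this split was not repeated at equal depth. Whether dividing cells were less frequent among T cells without naive-cell transcripts is therefore not settled by these values. Among T cells with such a UMI, 3.97% (48 of 1208) were cycling in DFMO and 15.5% (40 of 258) in water.

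Within lineages read from the UMIs of Cd8a, Cd8b1, Cd4 and Foxp3, the cycling share of CD8 cells was 8.60% (70 of 814, 6.76 to 10.7) in DFMO and 18.7% (144 of 771, 16.0 to 21.6) in water. Among CD8 cells with no UMI of the 3 naive-cell genes it was 15.1% (47 of 312, 11.3 to 19.5) in DFMO and 19.4% (123 of 633, 16.4 to 22.7) in water, a difference whose interval of -9.39 to 1.01 points includes 0. Among Foxp3 cells, which are regulatory T cells by that gene, it was 12.4% (13 of 105, 6.76 to 20.2) and 17.2% (17 of 99, 10.3 to 26.1), with intervals that overlap. Among CD4 cells without Foxp3 it was 3.01% (8 of 266, 1.31 to 5.84) and 6.25% (4 of 64, 1.73 to 15.2). In every one of these sets the DFMO value was the lower one. The cells had passed enrichment and the depositors' filters, so these shares say nothing of numbers in the tumours; fewer dividing T cells and more resting ones cannot be told apart in them.

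CD8 cells made up most of the cycling T cells in both libraries. They were 63.6% (70 of 110, 53.9 to 72.6) in DFMO and 75.4% (144 of 191, 68.7 to 81.3) in water. Foxp3 cells were 11.8% (13 cells, 6.45 to 19.4) and 8.90% (17 cells, 5.27 to 13.9), and CD4 cells without Foxp3 were 7.27% (8 cells, 3.19 to 13.8) and 2.09% (4 cells, 0.573 to 5.28). A further 7 DFMO and 5 water cells had UMIs of CD8 genes together with Cd4 or Foxp3, and 12 and 21 had none of the 4 genes. Without mixed profiles CD8 cells were 67.8% of 90 DFMO and 80.6% of 155 water cells. In dividing Ptprc-negative cells, which were deeper (medians of 21018 UMIs in DFMO and 19033 in water), Cd8a was seen in 0.448% and 0.316% of cells. Among non-cycling T cells CD8 cells were 45.5% in DFMO and 62.1% in water, but these cells were shallower, and 30.2% and 21.6% of them had none of the 4 genes. At 2000 UMIs per cell Cd8a was found in 55.5% of cycling against 53.7% of non-cycling T cells in DFMO and in 64.5% against 68.9% in water, so no order of the 2 sets is read from the shares.

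**Figure D2:**
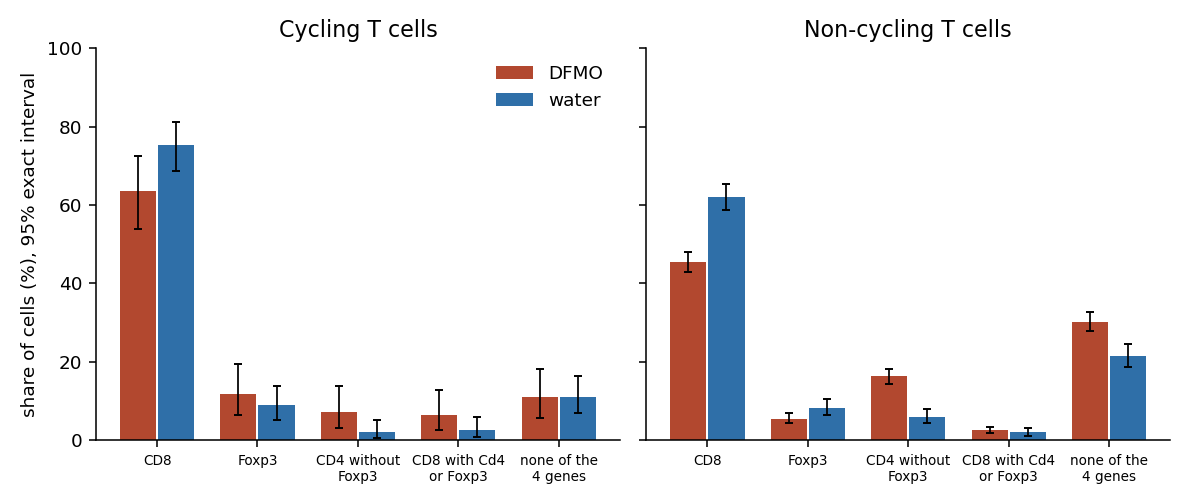
Share of cells (vertical axis, percent) in each lineage among cycling T cells (left panel) and non-cycling T cells (right panel), with DFMO bars left of water bars and exact 95% intervals of counting error. CD8 cells were the largest lineage in all 4 sets, and CD4 cells without Foxp3 were 7.27% of cycling against 16.3% of non-cycling T cells in DFMO.

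S phase genes took a like share of the UMIs of cycling T cells in both libraries. The list of 47 S phase genes, which holds none of the 4 division genes, took 0.646% in DFMO and 0.609% in water, and the list of 54 G2 and M phase genes took 1.53% and 1.24%. G2 and M phase genes exceeded S phase genes in 85 of 110 DFMO cells (77.3%, 68.3 to 84.7) and 147 of 191 water cells (77.0%, 70.3 to 82.7). At 2000 UMIs per cell these shares were 79.1% of 110 and 72.6% of 186 cells. The 4 division genes that chose the cells act mostly in G2 phase and mitosis, so the split describes cells found by them and not all dividing T cells.

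The spread over cells was wide within each library. S phase genes ranged over cells between 0.0563% and 1.71% of UMIs in DFMO (median 0.629%) and between 0.0355% and 1.48% in water (median 0.662%). G2 and M phase genes ranged between 0.179% and 3.74% in DFMO (median 1.61%) and between 0.165% and 4.20% in water (median 1.36%). Without mixed profiles the summed shares were 0.723% (DFMO) and 0.747% (water) for S phase genes and 1.72% and 1.53% for G2 and M phase genes. Within CD8 cells without mixed profiles, G2 and M phase genes led in 53 of 61 DFMO cells (86.9%, 75.8 to 94.2) and 96 of 125 water cells (76.8%, 68.4 to 83.9).

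**Figure D3:**
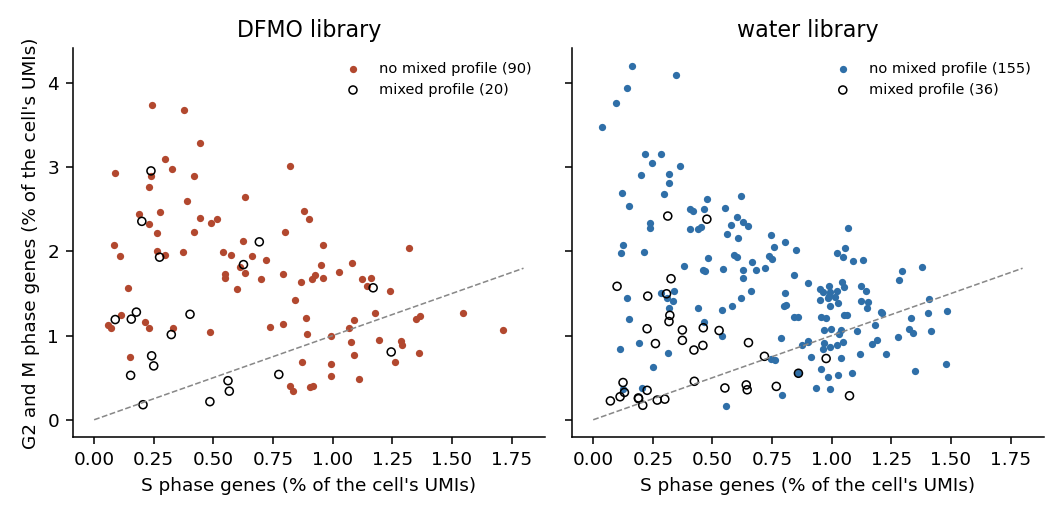
Share of each cycling T cell's UMIs in S phase genes (horizontal axis, percent) and in G2 and M phase genes (vertical axis, percent), DFMO left and water right. Open circles are cells with a mixed profile and the dashed line marks equal shares. Cells with the highest share of G2 and M phase genes had low shares of S phase genes in both libraries, and 85 of 110 DFMO and 147 of 191 water cells lay above the line.

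Genes of G2 phase and mitosis were slightly higher in DFMO cycling T cells. Summed over the cells, 48 of 54 had a higher CPM in DFMO and 6 a lower one, with a median log2 ratio of DFMO over water of 0.32. With the mean of the cells' own CPM 35 were higher and 19 lower (median 0.12), and with every cell thinned to 2000 UMIs 28 of 42 measured were higher (0.15). Over all 6016 genes measured (at least 30 UMIs over both libraries and a mean of at least 20 CPM) the median was 0.044. No gene of the list reached a 2-fold difference in either direction. Over all genes measured, 97 (1.61%) were at least 2-fold higher and 117 (1.94%) at least 2-fold lower. Without mixed profiles 1.90% of 5828 genes were higher and 1.29% lower by that measure. The highest was Plk1, a kinase that drives entry into mitosis, with 188 CPM (165 to 213 as an exact Poisson interval) in DFMO and 104 CPM (89.6 to 120) in water, a log2 ratio of 0.85 (0.57 to 1.14) that was 0.15 with every cell thinned to 2000 UMIs. Lbr, a receptor of the inner nuclear membrane, followed at 214 and 127 CPM (0.75, 0.49 to 1.01), and at -0.16 when thinned. The lowest was Pttg1, the gene of securin, at 143 CPM in DFMO against 184 CPM in water (-0.36, -0.63 to -0.09). Without mixed profiles the median was 0.13, with 40 higher and 14 lower. In CD8 cells without mixed profiles it was 0.22, with 43 higher and 10 lower among 53 measured.

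S phase genes did not share one direction across these sets. The median log2 ratio was 0.11 in all cycling T cells (33 of 47 higher in DFMO, 14 lower), 0.05 without mixed profiles and -0.14 in CD8 cells without mixed profiles (16 higher, 30 lower), and it was 0.00 with the mean of the cells' own CPM and -0.08 when thinned. Cdca7, a chromatin factor of S phase, was highest at 59.5 CPM in DFMO against 32.6 CPM in water (0.87, 0.36 to 1.39), but its log2 ratio was 0.07 in CD8 cells without mixed profiles. The helicase subunits Mcm3 and Mcm4 stood at 0.52 and 0.48. Dut, which keeps uracil out of DNA, was lowest at 692 CPM in DFMO against 893 CPM in water (-0.37, -0.49 to -0.25), and at -0.55 in those CD8 cells. Among the cyclins, kinases and their inhibitors, Cdkn1a, which encodes the inhibitor p21, was at 66.6 CPM in DFMO against 123 CPM in water (-0.88, -1.26 to -0.51). The retinoblastoma gene Rb1 was at 28.2 and 11.8 CPM (1.26, 0.44 to 2.11), and its ratio was 0.87 (-0.01 to 1.79) without mixed profiles.

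The promoters of the G2 and M phase genes are shown because these genes describe the phase by which the cells were found. Over the 250 bases before the gene start in RefSeq (build GRCm38.p6), a CHR element (TTTGAA on either strand) was found in 17 of the 46 list genes that had an entry (37.0%), in 6 of 35 S phase genes (17.1%) and in 13.9% of 12607 genes of the matrix. CCAAT on either strand was found in 76.1%, 68.6% and 39.9%, and both together in 30.4%, 11.4% and 5.20%. The E2F motif GGCGGGAA on either strand was found in 1 of the 46 (2.17%), 4 of the 35 (11.4%) and 3.59%. The sequences below are those of the 3 list genes with both elements, a single entry and most UMIs in cycling T cells, with CHR and CCAAT matches of either strand in capitals. A match describes these letters and is no evidence of binding.
Hmgb2 (chr8:57511593-57511842, plus strand): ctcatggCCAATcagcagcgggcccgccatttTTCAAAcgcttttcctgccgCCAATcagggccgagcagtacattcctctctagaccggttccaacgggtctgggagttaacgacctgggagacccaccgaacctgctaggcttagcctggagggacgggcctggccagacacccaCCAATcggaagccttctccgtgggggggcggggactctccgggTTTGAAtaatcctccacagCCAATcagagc
Tubb4b (chr2:25224703-25224952, minus strand): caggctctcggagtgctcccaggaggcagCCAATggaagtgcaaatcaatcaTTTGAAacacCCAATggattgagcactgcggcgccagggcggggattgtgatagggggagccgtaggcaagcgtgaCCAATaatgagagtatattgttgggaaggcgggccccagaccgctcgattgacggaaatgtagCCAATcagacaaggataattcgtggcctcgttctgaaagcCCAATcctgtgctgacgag
Ube2c (chr2:164769679-164769928, plus strand): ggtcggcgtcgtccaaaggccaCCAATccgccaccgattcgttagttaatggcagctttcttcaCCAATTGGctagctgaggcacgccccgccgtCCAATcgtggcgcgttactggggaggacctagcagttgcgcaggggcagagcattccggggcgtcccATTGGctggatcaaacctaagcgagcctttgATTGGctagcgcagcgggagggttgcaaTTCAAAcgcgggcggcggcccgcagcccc

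Hmgb2, a chromatin protein of dividing cells, was at 3672 CPM in DFMO against 2712 CPM in water (log2 ratio 0.44). Tubb4b, a tubulin of the spindle, was at 1131 and 914 CPM (0.31). Ube2c, the ubiquitin-conjugating enzyme of the anaphase-promoting complex, was at 1004 and 901 CPM (0.16).

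Genes of naive and memory T cells were higher in DFMO cycling T cells. Of the 14 list members with at least 30 UMIs, 12 had a higher CPM in DFMO, 9 of them at least 2-fold, against 1.61% of all genes measured. The median log2 ratio was 1.34, and it was 1.17 without mixed profiles and 1.12 in CD8 cells without mixed profiles, where 8 of 12 were at least 2-fold higher, against 1.99% of all genes measured there. The list summed to 1535 CPM in DFMO against 825 CPM in water. In non-cycling T cells the same list stood at 5854 CPM in DFMO against 2175 CPM in water; there 3.50% of genes were at least 2-fold higher and 3.78% lower.

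Tcf7 (chromosome 11, 52252371 to 52283014, mm10), the gene of TCF1, had 143 UMIs or 112 CPM in DFMO and 38 UMIs or 21.4 CPM in water, a log2 ratio of 2.39 (1.87 to 2.95). Slamf6 (chromosome 1, 171917515 to 171953170), a surface receptor often found with TCF1, had 117 UMIs or 91.7 CPM in DFMO and 26 UMIs or 14.6 CPM in water (2.65, 2.03 to 3.32). Both kept this direction in CD8 cells without mixed profiles, at 2.06 and 2.52. There 1 DFMO cell held 17 of the 71 Tcf7 UMIs and 22 of the 51 Slamf6 UMIs. Id3, a transcription regulator that opposes Id2 in T cell differentiation, was at 112 and 38.8 CPM (1.53, 1.11 to 1.97), and Id2 itself at 599 and 930 CPM (-0.64, -0.76 to -0.51). Lef1, the partner of TCF1, was at 69.7 and 20.2 CPM (1.78, 1.21 to 2.38). Ccr7, which guides cells to lymph nodes, was at 105 and 28.1 CPM (1.90), with 38.1% of its DFMO UMIs in 1 cell, and at 0.21 in CD8 cells without mixed profiles.

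The DFMO excess of Tcf7 was also seen as a share of all cycling T cells. A Tcf7 UMI was found in 35 of 110 DFMO cells (31.8%, 23.3 to 41.4) and 20 of 191 water cells (10.5%, 6.51 to 15.7), and at 2000 UMIs per cell in 16.4% of 110 and 3.76% of 186 cells. In the dividing Ptprc-negative cells, which stand here for background, it was found in 7.62% and 6.74% at their greater depth, and in 1.35% and 1.06% at 2000 UMIs per cell, with 4.06 and 3.93 CPM. Slamf6 was found in 33.6% of DFMO and 8.90% of water cells, with 0.448% and 0.211% in the Ptprc-negative cells. Both genes were found in 22 of 110 DFMO cells (95% interval of the share 13.0% to 28.7%) and 4 of 191 water cells (2.09%, 0.573 to 5.28). At 2000 UMIs per cell both were found in 2 of 110 and 1 of 186 cells, with intervals that overlap (0.221 to 6.41 and 0.0136 to 2.96). Tcf7 was also seen in 3 of 15 DFMO and 17 of 63 water cycling NK cells, where the DFMO value was not the higher one. Non-cycling T cells had the DFMO excess too, with Tcf7 in 50.3% of DFMO and 11.7% of water cells. At 2000 UMIs per cell these shares were 39.6% and 5.52%. Slamf6 was found there in 19.3% and 6.91% of cells. The log2 ratios in non-cycling T cells were 2.68 for Tcf7 and 1.91 for Slamf6.

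Among genes with a mean of at least 50 CPM, Nsg2 (chromosome 11, 32000463 to 32059202) had the highest ratio. This gene of a vesicle protein had 145 UMIs or 114 CPM in 39 DFMO cells and 14 UMIs or 7.87 CPM in 10 water cells (3.85, 3.06 to 4.76). It was at 0 in all 223 DFMO and 950 water Ptprc-negative cells, which, at 3 counts, allows shares of cells with a UMI of up to 1.35% and 0.316%. In non-cycling T cells Nsg2 was at 309 CPM in DFMO against 40.2 CPM in water (2.94, 2.64 to 3.27), so its DFMO excess was not limited to cycling T cells. After Slamf6, Tcf7, Ccr7 and Dapl1 came Izumo1r, which encodes folate receptor 4, at 143 and 38.8 CPM (1.88, 1.47 to 2.30), seen in 42 DFMO and 29 water cells. Dgka, which dampens signalling by diacylglycerol, was at 94.8 and 33.2 CPM (1.51), and the surface antigen gene Cd7 at 298 and 110 CPM (1.44). The ratios in non-cycling T cells were 3.31 for Dapl1, 0.74 for Izumo1r, 1.92 for Dgka and -0.33 for Cd7. The histone gene Hist1h2bc was at 93.2 and 30.4 CPM (1.62), with 29.4% of its DFMO UMIs in 1 cell, and its ratio was 0.33 without mixed profiles. Cd40lg, which helps B cells and dendritic cells, had 39 and 9 UMIs (2.59, 1.52 to 3.82). In CD8 cells without mixed profiles it had 0 UMIs in DFMO and 3 in water.

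Cells with transcripts of Tcf7 or Slamf6 had fewer transcripts of Gzmb than the remaining cells of their library. Of the 90 DFMO cycling T cells without mixed profiles, 34 had at least 2 UMIs summed over the 2 genes, and of the 155 water cells 10 had, a limit chosen after the values were seen. UMIs of both genes were found in 21 and 3 cells without mixed profiles. Of the 34 and 10 cells, 15 in DFMO and 7 in water were CD8, and 7 in DFMO and 0 in water were CD4 without Foxp3. Such cells had 113 CPM of the granzyme gene Gzmb in DFMO (82.4 to 151) and 388 CPM in water (265 to 547). The remaining 56 DFMO and 145 water cells had 2695 CPM (2559 to 2837) and 1698 CPM (1620 to 1779). In the Tcf7 or Slamf6 cells, 36 of 45 Gzmb UMIs in DFMO and 16 of 32 in water lay in 1 cell each. Among CD8 cells alone Gzmb was at 26.1 CPM (DFMO) and 387 CPM (water) in them, against 3091 and 1790 CPM in the rest. Id3 was at 291 CPM in the Tcf7 or Slamf6 cells of DFMO and 121 CPM in those of water, and at 29.3 and 17.2 CPM in the remaining cells.

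Pdcd1, the gene of the checkpoint receptor PD-1, was at 280 CPM in all DFMO and 360 CPM in all water cycling T cells (log2 ratio -0.36, -0.55 to -0.17). The split by Tcf7 and Slamf6 UMIs was made in cells without mixed profiles. Over all of those cells Pdcd1 was at 336 CPM in DFMO (300 to 375) against 529 CPM in water (488 to 573). In the cells with fewer than 2 such UMIs it was at 551 CPM in DFMO (491 to 617) against 552 CPM in water (508 to 599). In the Tcf7 or Slamf6 cells it was at 40.2 CPM in DFMO (23.0 to 65.3) against 242 CPM in water (148 to 374). Of the 20 water UMIs, 11 lay in 1 cell and 9 in another, while no DFMO cell held more than 4. Havcr2, the gene of the checkpoint receptor TIM-3, was at 110 and 94.4 CPM in the cells with fewer and at 10.0 and 0 CPM in the others. G2 and M phase genes took 1.79% (DFMO) and 1.81% (water) of UMIs in the Tcf7 or Slamf6 cells and 1.67% and 1.51% in the rest.

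**Figure D4:**
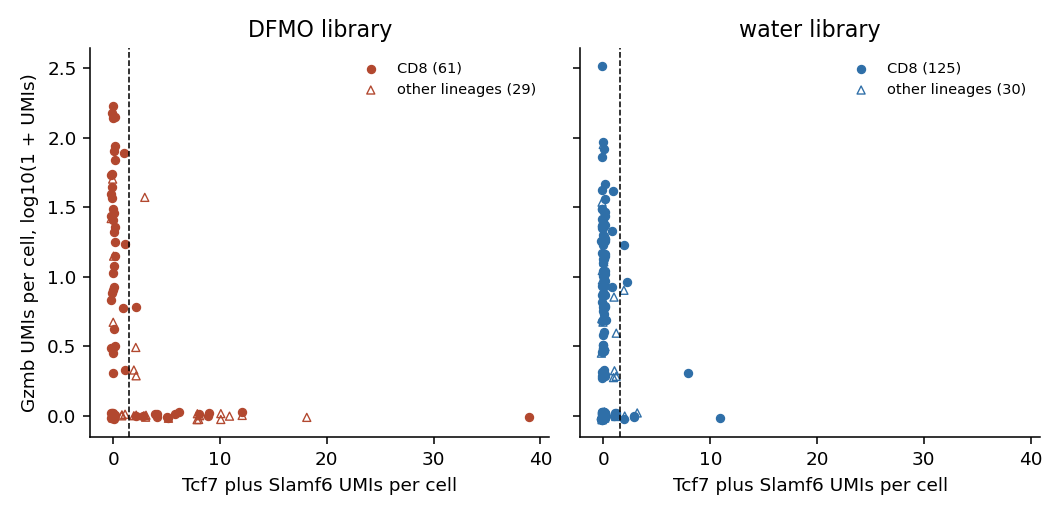
Gzmb UMIs (vertical axis, log10 of 1 plus UMIs) against Tcf7 plus Slamf6 UMIs (horizontal axis) in each cycling T cell without a mixed profile, DFMO left and water right, with points spread slightly. Filled circles are CD8 cells, open triangles are other lineages and the dashed line marks 2 UMIs. Right of the line lie 34 DFMO and 10 water cells, which together held 45 and 32 Gzmb UMIs, against 1472 and 1782 left of it.

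Cytotoxic effector genes were mostly lower in DFMO cycling T cells. Of 19 measured genes, 7 were higher and 12 lower (median log2 ratio -0.20), and without mixed profiles 4 were higher and 15 lower (median -0.50). Prf1, which encodes the pore protein perforin, was at 186 CPM in DFMO (164 to 212) against 298 CPM in water (273 to 324), a log2 ratio of -0.67 (-0.90 to -0.45). The cytokine gene Ifng was at 306 and 470 CPM (-0.62, -0.80 to -0.44), the granule gene Nkg7 at 1540 and 2334 CPM (-0.60), and the chemokine genes Ccl3 and Ccl5 at -0.52 and -0.36. Prf1, Ifng and Nkg7 were also lower in CD8 cells without mixed profiles, at -0.72, -0.78 and -0.61. Gzmb did not follow them, at 1264 CPM in DFMO against 1104 CPM in water (0.19), 0.00 without mixed profiles and 0.36 in CD8 cells without mixed profiles. It was found in 48.2% of DFMO and 65.4% of water cycling T cells, against 0.448% and 0.947% of Ptprc-negative cells. At 2000 UMIs per cell these shares were 36.4% in DFMO and 53.2% in water cycling T cells.

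Of the granzyme genes, Gzmf had 26 UMIs in 6 DFMO cells and 160 UMIs in 13 water cells (-2.14, -2.80 to -1.54), with 38.5% and 46.2% of its UMIs in 1 cell of each library. Gzmd had 2 UMIs in DFMO and 27 in water. Gzma was at 65.8 CPM in DFMO against 130 CPM in water (-0.99, -1.37 to -0.62), with 88.1% and 78.0% of its UMIs in 1 cell of each library. Gzmc was higher in DFMO over all cycling T cells (0.48, with 77.0% of its DFMO UMIs in 1 cell) and lower in CD8 cells without mixed profiles (-0.72). In non-cycling T cells Gzmf was at 464 CPM in DFMO against 333 CPM in water, the opposite order. The cytotoxic list as a whole kept its order there, at 10212 CPM in DFMO against 20769 CPM in water. Over all cycling T cells it summed to 9128 and 10751 CPM. Gzmb was at 842 CPM in DFMO against 2057 CPM in water in non-cycling T cells.

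Among checkpoint receptors, whose median log2 ratio was 0.08 (6 of 10 higher) and -0.26 without mixed profiles (8 of 10 lower), Tigit was at 159 CPM in DFMO against 213 CPM in water (-0.42) and Cd101, found on terminally exhausted CD8 cells, had 10 and 32 UMIs (-1.20, -2.39 to -0.14). Havcr2 was at 56.4 and 62.4 CPM (-0.15, -0.59 to 0.29) and Lag3 at 257 and 233 CPM (0.14, -0.07 to 0.35), both with intervals that include 0. Without mixed profiles Lag3 was at 283 and 346 CPM (-0.29, -0.52 to -0.06). Cd160 was at 125 and 77.1 CPM (0.70, 0.36 to 1.04), and its ratio was 0.35 (-0.01 to 0.71) without mixed profiles. In CD8 cells without mixed profiles the median was -0.03 and Pdcd1 stood at -0.36. Tox, a transcription factor of exhausted T cells, was at 78.3 and 96.7 CPM (-0.30, -0.67 to 0.06). Batf and Irf4, which act together after receptor stimulation, were at 0.75 and 0.92, and Bhlhe40 at -0.53.

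Type I interferon response genes were lower in DFMO cycling T cells. Of 29 measured list genes, 24 had a lower and 5 a higher CPM in DFMO (median log2 ratio -0.43). The median was -0.54 without mixed profiles (25 of 27 lower). In CD8 cells without mixed profiles it was -0.85, with all 24 measured genes lower in DFMO and 7 of them at least 2-fold, against 1.59% of the 5733 genes measured in those cells. The list summed to 6317 CPM in DFMO against 8303 CPM in water over all cycling T cells, and to 4930 and 7850 CPM in these CD8 cells.

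Bst2, which tethers budding viruses, was at 570 CPM in DFMO (530 to 613) against 1118 CPM in water (1070 to 1168), a log2 ratio of -0.97 (-1.10 to -0.85). The ubiquitin-like modifier gene Isg15 was at 509 and 843 CPM (-0.73, -0.86 to -0.59) and Irf7, a transcription factor that amplifies interferon production, at 131 and 201 CPM (-0.62, -0.90 to -0.35). Ifit1 and Ifit3, which bind viral RNA, were at -0.54 and -0.53, and at -2.17 and -1.65 in CD8 cells without mixed profiles. Ifi27l2a, the most abundant of the list, was at 3043 and 3628 CPM (-0.25). Ifi209 was higher in DFMO over all cycling T cells (100 and 75.9 CPM, 0.40), but its ratio was 0.10 (-0.30 to 0.50) without mixed profiles and -0.16 in CD8 cells without them.

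The interferon difference was not carried by a few cells. In CD8 cycling T cells without mixed profiles the list took a median of 0.426% of a cell's UMIs in DFMO (quartiles 0.291% and 0.672%, highest cell 2.50%) and 0.644% in water (quartiles 0.418% and 1.14%, highest cell 4.05%). The cell with most such UMIs held 5.29% of the list's UMIs in DFMO and 4.52% in water. Single cells of the libraries overlapped over most of their range. Non-cycling T cells showed the same order, at 7716 CPM in DFMO against 14101 CPM in water, and so did cycling NK cells, at 2617 CPM in 15 DFMO cells and 3753 CPM in 63 water cells, with 44.3% of the DFMO UMIs in 1 cell. Dividing Ptprc-negative cells showed the opposite order, at 6192 and 5441 CPM. Interferon gamma response genes had a median log2 ratio of -0.06, with 14 of 24 lower, and -0.18 in CD8 cells without mixed profiles, with 16 of 19 lower.

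**Figure D5:**
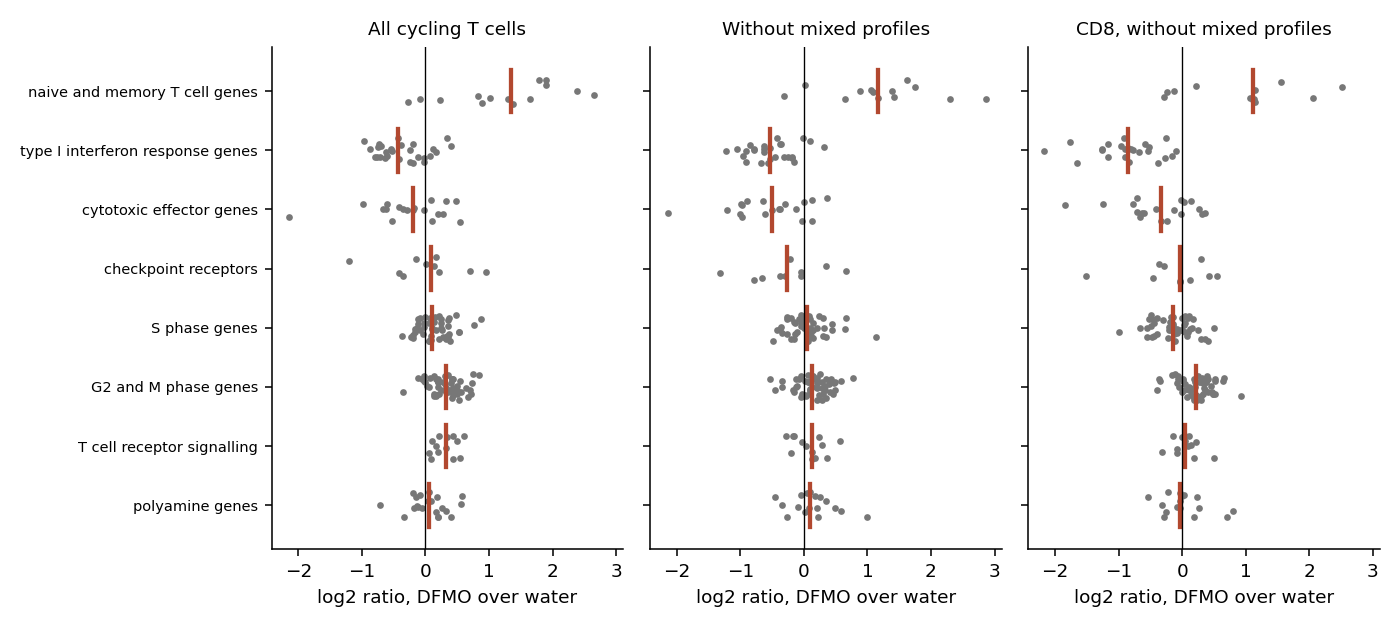
Log2 ratio of DFMO over water (horizontal axis) of each measured gene of 8 lists (rows), in all cycling T cells (left), without mixed profiles (middle) and in CD8 cells without mixed profiles (right). Each point is a gene with at least 30 UMIs and the red bar is the list median. Naive and memory T cell genes had medians of 1.34, 1.17 and 1.12 and type I interferon response genes of -0.43, -0.54 and -0.85.

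The genes lowest in DFMO by the 50 CPM rule were in part those of the mixed profiles. Gng11, a G protein subunit, was at 309 CPM in DFMO against 895 CPM in water (-1.54), Igfbp6 at 33.7 and 116 CPM (-1.78), and Apod, a lipid carrier, at 12.5 and 126 CPM (-3.33). In dividing Ptprc-negative cells Gng11 was at 1669 and 1947 CPM. Without mixed profiles Gng11 was still the lower one in DFMO, at 11.6 CPM against 140 CPM in water (-3.59, -4.62 to -2.71). Igfbp6 had 1 UMI in DFMO and 11 in water there, and Apod had 1 UMI in each library. The chemokine gene Ccl7 (-2.26) had 29 and 193 UMIs with mixed cells and 1 and 0 without them. Others had most of their water UMIs in 1 cell, at 79.0% for Penk, the proenkephalin gene, and 57.0% for the chemokine gene Ccl1. With the mean of the cells' own CPM the ratios of Penk and Ccl1 were -2.34 and -3.54. In non-cycling T cells they were -1.58 (-1.89 to -1.28) and -4.15 (-4.76 to -3.61). Ccl1 was at -1.84 in CD8 cycling cells without mixed profiles. Mt2, a metal-binding metallothionein, was seen in 24 DFMO and 52 water cells at 71.3 and 317 CPM (-2.15, -2.49 to -1.83). Mixed cells held most of these UMIs, of which 14 in DFMO and 72 in water were outside them, but the ratio there was -2.10, and -2.06 in CD8 cells. Jdp2, a repressor of AP-1, was at 30.6 and 86.6 CPM (-1.50, -2.05 to -0.99) and Cst6, a cysteine protease inhibitor, at 43.9 and 139 CPM (-1.66, -2.11 to -1.24), of which 9 and 25 UMIs lay outside mixed cells. The inducible chaperone gene Hspa1a had 11 and 101 UMIs (-2.72, -3.77 to -1.82), with 45.5% of them in 1 cell of each library, while the 11 measured heat shock chaperones had a median of -0.18.

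Polyamine genes, the pathway of the drug's target, differed little between the libraries over all cycling T cells. Of 21 measured genes, 12 had a higher and 9 a lower CPM in DFMO (median log2 ratio 0.06), and no gene was past 2-fold. The list summed to 5293 CPM in DFMO against 5042 CPM in water, and without mixed profiles to 5171 and 4615 CPM. Over the single cells of all cycling T cells it took a median of 0.481% of UMIs in DFMO and 0.456% in water. Odc1 was at 284 CPM in DFMO (256 to 315) against 316 CPM in water (290 to 343), a log2 ratio of -0.15 (-0.34 to 0.04). Without mixed profiles it was at 194 and 267 CPM (-0.46, -0.73 to -0.19). In CD8 cells without mixed profiles it was at 141 CPM in DFMO (113 to 173) against 205 CPM in water (177 to 236). In non-cycling T cells Odc1 was at 159 and 293 CPM (-0.89).

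Of the other polyamine genes, Sat1, which starts polyamine breakdown, was at 150 and 190 CPM (-0.33, -0.60 to -0.07), and its ratio was -0.27 (-0.59 to 0.04) without mixed profiles. The antizyme gene Oaz1, whose product sends ornithine decarboxylase to the proteasome, was at 1965 and 1736 CPM (0.18, 0.10 to 0.26). The antizyme inhibitor gene Azin1 was at 94.0 and 75.4 CPM (0.32, -0.05 to 0.69), and its ratio was 0.58 (0.14 to 1.01) without mixed profiles. The spermidine synthase gene Srm was at 168 and 174 CPM (-0.05), and without mixed profiles at 136 and 96.3 CPM (0.49, 0.11 to 0.88). The spermine synthase gene Sms was at 176 and 147 CPM (0.26, 0.00 to 0.53) and at -0.22 when thinned. Amd1, which supplies the aminopropyl group, was at 40.0 and 30.4 CPM (0.40, -0.19 to 0.98), and without mixed profiles at 37.1 and 18.6 CPM (interval of the log2 ratio 0.18 to 1.85). Eif5a, which carries the spermidine-derived residue hypusine, was at 1703 and 1654 CPM (0.04), with Dhps and Dohh, the enzymes of that modification, at 0.19 and 0.56, and at -0.43 and -0.56 when thinned.

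Of the urea cycle and arginine genes, 7 of 12 measured were higher in DFMO, with a median of 0.13. Ass1, which starts the resynthesis of arginine, was at 213 CPM in DFMO (189 to 240) against 136 CPM in water (120 to 154), a log2 ratio of 0.65 (0.39 to 0.90). It was at 0.79 in CD8 cells without mixed profiles and at 0.78 in non-cycling T cells. Ass1 was seen in 43.6% of DFMO and 28.8% of water cells (25.5% and 17.2% at 2000 UMIs per cell), and in 7.17% and 5.26% of dividing Ptprc-negative cells. Its partner Asl was at 16.5 and 24.7 CPM (-0.59, -1.41 to 0.19), and Gamt, which completes creatine, at 11.0 and 29.2 CPM (-1.41, -2.38 to -0.54), with 1 and 4 UMIs outside mixed cells. Arg1 had 0 UMIs in DFMO, which allows up to 2.35 CPM at 3 counts, and 2 UMIs in water. Arg2 had none in either. Gatm, the first enzyme of creatine synthesis, was at 26.6 and 24.7 CPM (0.11, -0.58 to 0.78), and its ratio was -0.74 (-2.92 to 1.16) without mixed profiles.

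Growth lists were close to the median of all genes. Nucleotide synthesis genes had a median of 0.16 (20 of 27 higher in DFMO), MYC targets and ribosome biogenesis genes 0.11 (15 of 20 higher), respiratory chain subunits 0.03 (17 of 30 higher) and amino acid transporters 0.03 (7 of 9 higher). Glycolysis genes had -0.16 (11 of 17 lower), with the lactate exporter gene Slc16a3 at -0.68 and Gapdh at 0.42. T cell receptor signalling genes were higher in 13 of 13 with a median of 0.33, but the median was 0.12 without mixed profiles and 0.05 in CD8 cells without mixed profiles. Cd5, which tunes receptor signalling, was highest at 220 and 144 CPM (0.61, 0.36 to 0.86), and at 0.50 in those CD8 cells. Costimulatory genes had a median of 0.16 and immediate early genes -0.01. Chemokine receptor and integrin genes had 0.03, with Cxcr3 at 80.7 and 48.9 CPM (0.72, 0.30 to 1.15) and Cxcr6 at 299 and 429 CPM (-0.52, -0.70 to -0.34).

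The few Foxp3 cycling cells without mixed profiles, 9 in DFMO and 10 in water, carried the genes of regulatory T cells. Ctla4 was at 724 CPM in DFMO (557 to 924) against 1509 CPM in water (1200 to 1874), against 161 and 121 CPM in CD8 cycling cells. Il2ra, the gene of CD25, was at 294 CPM (192 to 431) and 607 CPM (418 to 853). Ass1 was at 1120 CPM (910 to 1363) and 939 CPM (699 to 1234), against 81.3 and 46.9 CPM in CD8 cycling cells, and Odc1 at 599 and 755 CPM, against 141 and 205 CPM. Gzmb was at 464 CPM (333 to 629) in DFMO against 2062 CPM (1698 to 2481) in water. Of its UMIs, 24 of 41 in DFMO and 83 of 112 in water lay in 1 cell each. The regulatory T cell list over all cycling T cells had a median log2 ratio of 0.21 (5 of 9 higher). These values rest on 9 and 10 cells of pooled mice, and intervals cover the counts of those cells only.

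The CD4 cycling cells without Foxp3, 7 in DFMO and 4 in water, were few. The 7 DFMO cells held 40 UMIs of Tcf7 (554 CPM, 396 to 755), 55 of Nsg2 (762 CPM), 33 of Izumo1r (457 CPM) and 1 of Gzmb. The 4 water cells held 0 UMIs of Tcf7 and Nsg2, 5 of Izumo1r and 38 of Gzmb (1074 CPM, 760 to 1474). Of these 38 Gzmb UMIs, 35 lay in 1 cell. Pdcd1 had 1 UMI in the DFMO cells and 19 in the water cells.

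Set against non-cycling T cells of the same library, cycling T cells differed in many genes. The cells of this comparison were chosen by division genes, so the values are a description and the S and G2 and M phase lists are left out. At least 2-fold differences were frequent, with 9.0% of 6125 genes higher and 7.58% lower in cycling T cells of DFMO and 8.0% and 6.07% in water. Among CD8 cells without mixed profiles these shares of 5899 genes were 7.83% and 7.92% in DFMO and 7.41% and 4.48% in water. Beyond those lists, the highest were Pclaf, a clamp-associated factor of DNA replication, at 1098 CPM in cycling against 5.79 CPM in non-cycling T cells of DFMO (log2 ratio 7.57) and at 1026 against 12.2 CPM in water (6.39). Fbxo5, which restrains the anaphase-promoting complex, stood at 5.82 and 5.37, the kinetochore genes Spc24 at 5.30 and 5.94 and Spc25 at 5.56 and 4.86, and the tubulin regulator gene Stmn1 at 4.81 and 4.52.

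Lower in cycling than in non-cycling T cells were all 15 naive and memory T cell genes in both libraries, with medians of -2.13 in DFMO and -1.42 in water. Il7r, the gene of the interleukin 7 receptor, was at 55.6 against 409 CPM in DFMO (-2.88) and 27.6 against 126 CPM in water (-2.19). All 13 T cell receptor signalling genes were lower in both (medians -0.77 and -0.85), as were all 14 immediate early genes (-1.02 and -1.01). Of 31 type I interferon response genes, 25 were lower in both (-0.68 and -0.86), and 28 of 29 in CD8 cells without mixed profiles (-1.10 and -0.71). In those CD8 cells all 15 naive and memory genes and all 14 immediate early genes were again lower in both, and Ifit1 was at 20.3 against 191 CPM in DFMO and 91.7 against 346 CPM in water. A lower share of the total is also what a larger RNA content from other genes gives, and amounts per cell were not tested.

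Higher in cycling T cells of both libraries were 22 of 27 nucleotide synthesis genes (medians 0.65 in DFMO and 0.82 in water), 24 of 30 respiratory chain subunits (0.36 and 0.28) and 12 of 18 glycolysis genes (0.86 and 0.21). Polyamine genes were higher in 12 of 21 in both (0.10 and 0.27). Over all genes measured the medians were -0.034 and -0.019. In CD8 cells without mixed profiles fewer were higher in both libraries. There the counts were 15 of 26 nucleotide synthesis genes (medians 0.36 and 0.57) and 19 of 30 respiratory chain subunits (0.25 and 0.16). For glycolysis genes the count was 11 of 18 (0.62 and 0.18), and for polyamine genes 10 of 21 (0.08 and 0.11). Cytotoxic effector genes had a median of 0.32 in DFMO (12 higher, 8 lower) and -0.76 in water (1 higher, 20 lower), and checkpoint receptors of 0.09 (6 higher, 5 lower) and -0.88 (1 higher, 10 lower). The non-cycling T cells that these values are set against held a UMI of the 3 naive-cell genes in 76.0% of DFMO and 23.7% of water cells. In CD8 cells without mixed profiles the cytotoxic medians were 0.16 and -0.47.

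Cycling T cells of both libraries used many receptor segments. In DFMO, 23 Trbv segments were seen, and Trbv13-1 held 14.0% of Trbv UMIs in 15 cells, Trbv19 12.1% in 14 cells and Trbv13-2 10.9% in 28 cells. In water, 20 were seen, and Trbv12-1 held 23.2% in 54 cells, Trbv12-2 18.6% in 34 cells and Trbv16 held 224 UMIs in 17 cells. Trbv12-1 was at 14.9% of Trbv UMIs in non-cycling T cells of water and at 5.02% in those of DFMO. Of the Trav segments, Trav16 led in both libraries, with 16.5% of Trav UMIs in 25 DFMO cells and 24.7% in 50 water cells, against 4.91% and 12.9% in non-cycling T cells. Near-identical segments can share reads, full receptor sequences were not used here, and clones cannot be told apart from segments alone.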

How the data were processed

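The deposited values were raw UMI counts of 17775 genes in 10720 cells, made by the authors with Cell Ranger 3.02 and Scanpy 1.4.4 on mm10, per the submitters' processing notes; how cells were filtered is not stated there. The deposited cell table gave each cell's library, and its UMIs and genes per cell are counts, per the file headers. The matrix held 0 mitochondrially encoded and 0 ribosomal protein genes. UMIs were summed per library and set of cells and scaled to CPM of that set's total. Ratios are log2 of DFMO over water with exact conditional binomial intervals, CPM have exact Poisson intervals, and shares have exact Clopper-Pearson intervals, all at 95% and covering counting error only. With 1 pooled library per group no test was run. A list gene counted as measured with at least 30 UMIs over both libraries, and all genes measured also had a mean of at least 20 CPM. Cells were thinned to 2000 UMIs with a fixed seed. Doublets were called with Scrublet in scanpy 1.11.5 (assumed rate 0.05), which marked 1.14% of DFMO and 1.55% of water cells, and were kept in the main values. Interval code was tested on simulated data. TMM factors came from edgeR 4.0.16 in R 4.3.3, and figures were drawn with matplotlib 3.10.9; sums and intervals used numpy 2.4.6 and scipy 1.17.1 under Python 3.11.15. Gene positions were those of GENCODE M21 (17743 genes matched).

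The members, lists and comparisons were chosen with earlier results of these data known. Named genes were the 10 highest and 10 lowest ratios with a mean of at least 50 CPM, the 2 highest and 2 lowest measured genes of each list, and a fixed set of lineage, polyamine, checkpoint and effector genes. Values of some genes, and the cycling share by one further choice of naive-cell genes, are not reported here, so the dependence on that choice is shown only in part. Further list members were named after their values were seen, as were the sets of mixed profiles and of cells with Tcf7 or Slamf6.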

Additional observations from a re-analysis of the deposited data

How the results depend on the processing

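The difference in the cycling share (-9.75 points) kept its direction in the 12 alternatives run and was smaller with every cell thinned to 2000 UMIs (-5.44), in T cells with no UMI of Lef1, Ccr7 or Dapl1 (-4.03), of Lef1 or Ccr7 (-4.63), of Lef1 or Dapl1 (-5.93) and of Ccr7 or Dapl1 (-6.14), and in CD8 cells with none of the 3 (-4.37). Of all genes, 97 were at least 2-fold higher and 117 lower in DFMO. The count of lower genes was 75 without mixed profiles and 55 with the mean of the cells' own CPM. At a mean of at least 10 CPM the counts were 179 higher and 228 lower, and at 50 CPM 28 and 52. The difference in the share of CD8 cells (-11.8 points) ranged between -13.7 and -11.8 over its alternatives and that of Foxp3 cells (2.92 points) between 2.53 and 5.95. The median of S phase genes (0.11) ranged between -0.08 and 0.13 over its 9 alternatives (and was -0.14 in CD8 cells without mixed profiles), and that of G2 and M phase genes (0.32) between 0.12 and 0.32.

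Among the 91 named genes whose interval excluded 0, the ratio changed sign without mixed profiles for Apod (0.26), Ndufb9 (0.01) and Col3a1 (1.85). In CD8 cells without mixed profiles it did so for Hist1h2bc (-0.06), Ccnd1 (1.87), Gzmc (-0.72), Il2ra (-0.25), Ndufb9 (0.08), Ifi209 (-0.16) and Col3a1 (3.14), and in CD8 cells alone for Gzmc (-0.75), Ifi209 (-0.03) and Cd8a (0.05). With members thinned to 2000 UMIs it did so for Dscc1 (-0.34), Lbr (-0.16), Cdk1 (-0.03), Gzmc (-0.53), Zeb2 (0.34), Ifi209 (-0.28), Cd4 (-0.02) and Sms (-0.22), and with the mean of the cells' own CPM for Ccnd1 (0.04) and Gzmc (-0.41). Among the 43 named genes whose interval included 0, between 0 and 18 changed sign per alternative, most with members thinned to 2000 UMIs. The cause was not tested. Of the other values of named genes, 967 moved by less than their counting interval and 196 by more. The sets without mixed profiles and without a naive-cell UMI were chosen after seeing the data. No paired analysis was possible because DFMO and water were sequenced as 1 library each. Precision is limited by 110 and 191 cells and by pooling, and the spread between mice is unknown.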
